A study of Mus musculus with 12 samples.

Results

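The 9 genes described here encode proteins of myelin and of the oligodendrocytes that make it: Mbp, Mobp, Cnp, Mog, Mag, Mal, Opalin, Cldn11 and Ugt8a. They were chosen by name, each gene had 1 probe set (a group of array probes read as 1 value) with that gene as its only symbol in the platform annotation, and they are 9 of 19938 genes named in this way. Total RNA was taken from anterior striata; the mice were adolescent male Swiss CD-1, an outbred stock, trained for 10 days in conditioned place preference, where a drug given 15 minutes earlier is paired with 1 compartment of a box. The 12 arrays fall into 4 groups of 3 that received saline, ethanol, mephedrone (a synthetic stimulant of the cathinone class) or both drugs, the last called the combination. No group carries a transgene or deletion in the labels, and the labels do not say whether an array holds the RNA of 1 animal or of several, so the p-values measure only how far these samples spread, and that spread may be technical. Every value below is a log2 value centred on the gene's own median over the 12 arrays, so a value of 0 is that median and the level of 1 gene cannot be compared with that of another. For the same reason the presence of oligodendrocytes could not be checked from absolute marker levels.

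Oligodendrocytes wrap axons in many layers of their own membrane, which insulates the axon and speeds conduction. Compact myelin is held together by basic and proteolipid proteins, its membrane is rich in galactosylceramide and sulfatide, and its innermost and outermost turns carry adhesion proteins. In the striatum, myelin lies mainly in the bundles of the internal capsule that cross the tissue, and the corpus callosum, a large white matter tract, lies directly above. In a bulk RNA sample, a different number of oligodendrocytes and a different amount of RNA per oligodendrocyte cannot be told apart.

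The 250 bases before the start sites of these genes were searched, on both strands, for short core sequences of factors known to act in oligodendrocytes. Of the windows with a match, 3 are shown to let a reader see them. Whether these factors bear on the array values was not tested. The motifs were the SOX cores AACAAT and ACAAAG, the E-box CAGCTG and the MYRF core CTGGCAC, and each match was counted, overlapping or not; the 2 SOX cores share the letters ACAA. Windows were taken from RefSeq on GRCm38.p6 for 8 of the 9 genes, Mbp not being used here. ACAAAG was in a window of 4 of the 8 genes (Cnp, Mag, Mobp and Opalin) against 16.5% of all 32817 windows, and CTGGCAC in 2 of 8 (Cnp and Mag) against 4.19%. AACAAT and CAGCTG were in none of the 8, against 9.42% and 13% of all windows. The windows of Mal, Cldn11, Ugt8a and Mog held no match of any motif. A match is a description of the letters and not a bound site. A gene with several starts had several windows, so the counts per gene and the shares per window are unlike measures. The Mag window at chr7:30914322-30914571 (- strand), for example, held 0 matches. The Mobp window at chr9:120149492-120149741 (+ strand) held 6 matches, all of ACAAAG, the Opalin window at chr19:41077114-41077363 (- strand) held 1, and the Mag window at chr7:30914923-30915172 (- strand) held 1 of ACAAAG and 1 of CTGGCAC. Matches are in capitals, on the gene's own strand, so that ACAAAG on the other strand reads CTTTGT.
Mobp: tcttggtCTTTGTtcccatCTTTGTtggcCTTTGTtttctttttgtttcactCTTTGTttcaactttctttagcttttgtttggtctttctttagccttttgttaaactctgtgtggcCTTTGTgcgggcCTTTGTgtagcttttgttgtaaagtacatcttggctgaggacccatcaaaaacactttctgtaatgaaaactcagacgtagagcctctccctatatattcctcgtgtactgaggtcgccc
Opalin: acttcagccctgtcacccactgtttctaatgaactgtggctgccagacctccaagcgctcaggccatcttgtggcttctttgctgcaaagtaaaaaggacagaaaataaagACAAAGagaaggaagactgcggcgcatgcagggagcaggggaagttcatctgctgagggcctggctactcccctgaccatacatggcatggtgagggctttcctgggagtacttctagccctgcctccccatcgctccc
Mag: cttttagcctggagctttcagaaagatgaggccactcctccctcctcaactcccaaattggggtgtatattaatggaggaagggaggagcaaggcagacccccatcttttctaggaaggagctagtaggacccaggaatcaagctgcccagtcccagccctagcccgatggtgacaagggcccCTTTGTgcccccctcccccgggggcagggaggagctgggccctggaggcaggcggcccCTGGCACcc

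Over the 12 arrays the 9 genes moved largely together. Combination replicate 3 was the highest array for 9 of 9 genes, against 18.2% of all genes, and saline replicate 3 was the second highest for 8 of 9, the exception being Mag. At the low end, mephedrone replicate 3 was lowest for 6 genes, mephedrone replicate 2 for 2 (Mog and Opalin) and ethanol replicate 2 for 1 (Mag). The mean of the 9 genes was 0.0018, 0.065 and 0.14 in saline replicates 1 to 3, 0.00064, -0.066 and 0.026 in the ethanol replicates, 0.0096, -0.13 and -0.15 in the mephedrone replicates and -0.027, -0.024 and 0.46 in the combination replicates. As group means this was 0.067 ± 0.067 (SD, n = 3) in saline, -0.013 ± 0.048 after ethanol, -0.090 ± 0.087 after mephedrone and 0.14 ± 0.28 after both drugs. Without replicate 3 the combination stood at -0.025 ± 0.0017 (SD, n = 2).

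**Figure D1:**
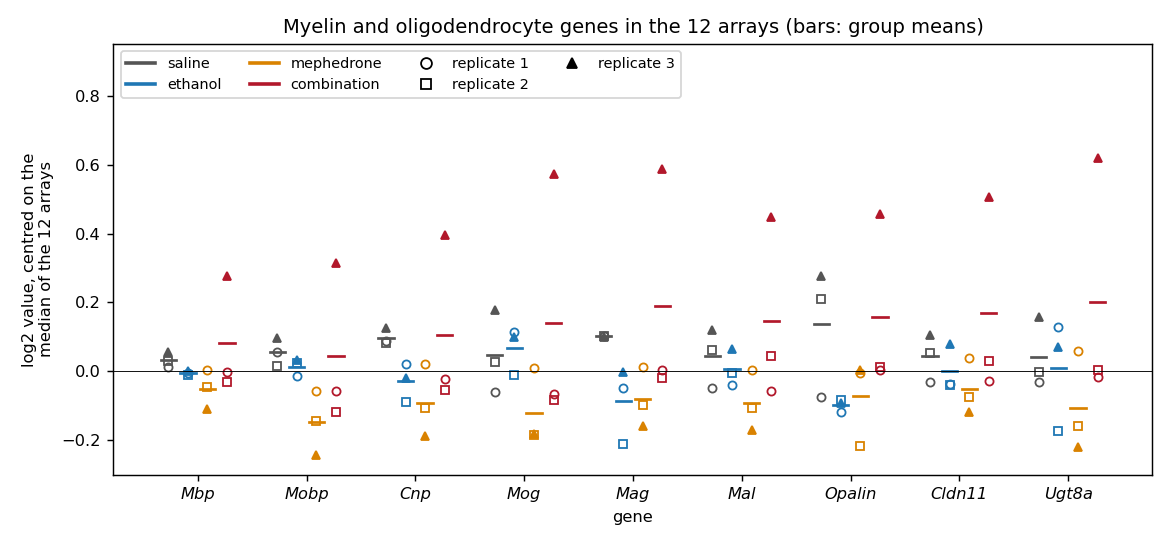
Centred log2 values of the 9 myelin and oligodendrocyte genes; the x axis gives the gene, colours the 4 treatment groups, symbols the replicate and short bars the group means. The filled red triangles of combination replicate 3 lie above all other arrays for each gene, from 0.28 for Mbp to 0.62 for Ugt8a.

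Among the proteins of compact myelin, Mbp, which holds the cytoplasmic faces of the membrane together, had the narrowest range. Its values were 0.014, 0.031 and 0.055 in saline, -0.0049, -0.012 and 0.0024 after ethanol, 0.0041, -0.045 and -0.11 after mephedrone, and -0.0024, -0.031 and 0.28 after both drugs. The 3 saline arrays thus lay above all ethanol and mephedrone arrays and above the first 2 combination arrays, by small amounts, and combination replicate 3 lay far above all of these. Mobp, a second basic protein of compact myelin, had 0.056, 0.014 and 0.096 in saline and -0.014, 0.023 and 0.033 after ethanol. With mephedrone it had -0.058, -0.14 and -0.24, and after both drugs -0.056, -0.12 and 0.31. All mephedrone arrays and the first 2 combination arrays were below all arrays of both groups without mephedrone, and combination replicate 3 was again on the opposite side. Mal, a proteolipid of the myelin membrane, had -0.049, 0.061 and 0.12 in saline, -0.041, -0.0033 and 0.065 after ethanol, 0.0033, -0.11 and -0.17 after mephedrone and -0.056, 0.044 and 0.45 after both drugs. For Mal every pair of groups overlapped.

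Cnp, an enzyme of the uncompacted, cytoplasm-filled parts of myelin, was at 0.087, 0.082 and 0.12 in saline and at 0.022, -0.088 and -0.020 after ethanol. It was at 0.020, -0.11 and -0.19 after mephedrone and at -0.021, -0.055 and 0.39 after both drugs. Saline was above both single-drug groups without overlap. Mag, an adhesion protein of the innermost turn that faces the axon, gave nearly equal saline values of 0.10 in all 3 arrays, with -0.049, -0.21 and -0.0027 after ethanol, 0.013, -0.098 and -0.16 after mephedrone and 0.0027, -0.018 and 0.59 after both drugs. As for Cnp, the saline arrays lay above all arrays given 1 drug. Mog, an immunoglobulin-family protein of the outermost surface, had -0.060, 0.026 and 0.18 in saline, 0.12, -0.0091 and 0.10 after ethanol, 0.0091, -0.19 and -0.18 after mephedrone and -0.065, -0.083 and 0.57 after both drugs. Its ethanol mean of 0.069 ± 0.068 (SD, n = 3) was not below the saline mean of 0.048 ± 0.12, unlike the other 8 genes, though after quantile normalisation Mog too was lower after ethanol (-0.011). Opalin, a membrane glycoprotein of mature oligodendrocytes, had the widest saline spread of the 9, at -0.074, 0.21 and 0.28. Its values were -0.12, -0.082 and -0.092 after ethanol, -0.0040, -0.22 and 0.0046 after mephedrone and 0.0040, 0.014 and 0.46 after both drugs. Opalin was the 1 gene whose 3 combination arrays all lay above the 3 ethanol arrays.

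Cldn11, the tight junction protein that seals the spiral of myelin layers, had -0.029, 0.054 and 0.11 in saline, -0.036, -0.041 and 0.080 after ethanol, 0.040, -0.075 and -0.12 after mephedrone and -0.029, 0.029 and 0.50 after both drugs. Ugt8a makes galactosylceramide, the typical lipid of myelin. It had -0.031, -0.0026 and 0.16 in saline, 0.13, -0.17 and 0.071 after ethanol, 0.059, -0.16 and -0.22 after mephedrone and -0.016, 0.0026 and 0.62 after both drugs. The groups overlapped in every pair for both genes.

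Combination replicate 3 set most of the spread of the 9 genes. It was also the widest array over all probe sets (SD 0.17, against 0.068 to 0.13 in the other arrays). In that array the genes stood above the mean of the other 2 combination arrays by 0.65 for Mog, 0.63 for Ugt8a, 0.60 for Mag, 0.50 for Cldn11, 0.45 for Mal, 0.45 for Opalin, 0.43 for Cnp, 0.40 for Mobp and 0.29 for Mbp, or 1.23-fold to 1.57-fold. All 9 exceeded 0.25 in this difference between single arrays, as did 6.6% of all genes, and the median was 0.453 for the 9 and 0.000582 for all genes. After quantile normalisation the median for the 9 was 0.22 (0.16 to 0.33), and 8 of 9 were still highest in that array. That step gives every array the same spread, so it narrows the widest array by construction. Without that step Mog ranked highest among the 9 at place 198 of all genes, and Mbp lowest at 1031. The within-group SD (residual SD of the fit) had a median of 0.16 over the 9 genes against 0.066 over all genes, and of 0.075 against 0.063 once that array was left out. Without it, Mbp had a residual SD of 0.034, and 9.67% of genes had a smaller one, while Ugt8a and Opalin stayed wide at 0.13 and 0.12.

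**Figure D2:**
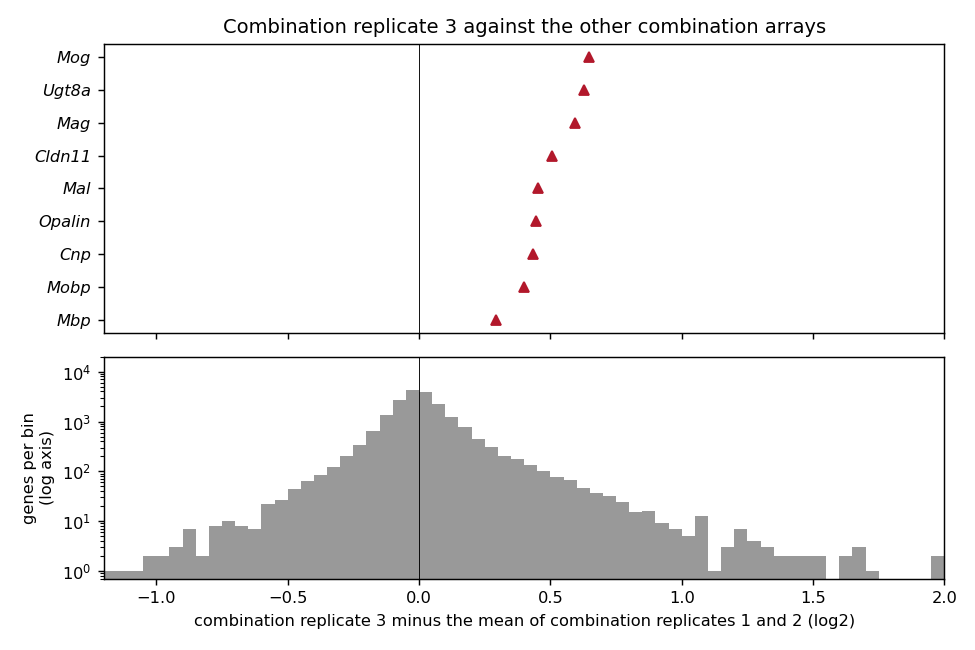
Difference of combination replicate 3 from the mean of combination replicates 1 and 2, in log2, for the 9 genes (upper panel, 1 triangle per gene) and for all genes (lower panel, genes per bin of 0.05, log axis). The 9 genes lie between 0.29 and 0.65, in the upper tail of all genes; 3 genes below -1.2 and 3 above 2 are not drawn.

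Markers of other tissue moved in the same array. The 14 choroid plexus markers, genes of the epithelium that makes cerebrospinal fluid, had a mean of 1.82 in combination replicate 3 and all 14 were highest there, led by Kcnj13 at 4.36 and Kl at 2.76. Over the groups the choroid plexus mean ran from -0.10 to 1.02 in saline, from -0.093 to 0.76 after ethanol, from -0.17 to 0.54 after mephedrone and from -0.041 to 1.82 after both drugs. The 10 measured cortical excitatory neuron markers had a mean of 0.71 there, with Tbr1 at 1.54 and Neurod6 at 1.22, the 12 astrocyte markers 0.23, of which 6 were highest there, Gfap most at 1.03, and 4 exceeded the other 2 combination arrays by over 0.25, and the 12 measured striatal projection neuron markers -0.30. In the same array the means were 0.16 for ependymal cells, 0.064 for Schwann cells, 0.021 for microglia, -0.066 for endothelial cells and -0.29 for neurons of the ventral forebrain. These markers were not flat in the other arrays: the cortical mean ran from -0.30 to 0.30 in saline, from -0.43 to 0.17 after ethanol and from -0.061 to 0.32 after mephedrone. After quantile normalisation, 7 of 14 choroid plexus, 1 of 10 cortical and 4 of 12 astrocyte markers were highest in combination replicate 3, against 14, 8 and 6 before. The median difference from the other 2 combination arrays was then 0.48, 0.33 and 0.054, against 1.54, 0.64 and 0.11 before. For the striatal projection neuron markers it was -0.17, against -0.31 before. The part of these markers in the myelin values was not tested. The choroid plexus mean was also high in saline replicate 2 (1.02), ethanol replicate 1 (0.76), mephedrone replicate 1 (0.54) and combination replicate 2 (0.54), where the mean of the 9 myelin genes lay between -0.024 and 0.065.

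Mephedrone given alone was compared to saline first. All 9 genes had lower means after mephedrone, from -0.084 in log2 for Mbp (SE 0.068) through -0.19 for Cnp (SE 0.099) and -0.20 for Mobp (SE 0.092) to -0.21 for Opalin (SE 0.12), which are ratios of 0.86 to 0.94. The median was -0.17 against 0.0084 over all genes. None passed in limma (0 of 9, with 0% of all genes called, lowest adjusted p = 0.685 for Mobp), and 1 of 9 had an unadjusted p under 0.05, against 7.23% of genes. The mephedrone arrays lay wholly below the saline arrays for 4 of 9 genes (Mbp, Mobp, Cnp and Mag), against 4.74% of all genes (9.99% lay wholly above), though genes that vary together are not separate observations. The difference itself does not use the combination arrays, but the shared spread does. With combination replicate 3 left out, the SE fell to 0.048 for Mobp and 0.051 for Cnp, 7 of 9 genes had an unadjusted p under 0.05, against 8.73% of genes, and none passed (0 of 9, lowest adjusted p = 0.277 in limma for Mobp). The difference rested mainly on mephedrone replicates 2 and 3 and on saline replicate 3. Its median was -0.10 without saline replicate 3 and -0.23 without mephedrone replicate 1.

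Ethanol given alone was compared to saline next, and 8 of 9 genes had lower means, by a median of -0.041 against 0.011 over all genes. Opalin had -0.23 (SE 0.12), Mag -0.19 (SE 0.13) and Cnp -0.13 (SE 0.099), and the other 6 lay between -0.043 and 0.021. The ethanol arrays were wholly below the saline arrays for 4 genes (Mbp, Cnp, Mag and Opalin), against 2.44% of all genes (6.1% lay wholly above). None of the 9 passed in limma (0% of all genes called, adjusted p = 0.99998 for each), and none had an unadjusted p under 0.05, against 4.98% of genes. Without combination replicate 3, 3 of 9 (Mag, Opalin and Cnp) had an unadjusted p under 0.05, against 5.98%, with adjusted p = 0.822 for each in limma. Mephedrone against ethanol, the difference between the single drugs, gave a median of -0.062, with 0 of 9 passing and none with an unadjusted p under 0.05, against 6.28% of genes (0% of all genes called, lowest adjusted p = 0.880 in limma). Mobp at -0.16 (SE 0.092) was the 1 gene whose arrays did not overlap, against 6.7% of all genes that were lower in this way, and Mog had -0.19 (SE 0.14). Without combination replicate 3, 2 of 9 (Mobp and Mog) had an unadjusted p under 0.05, against 7.44% of genes, and none passed (0.0201% of all genes called, lowest adjusted p = 0.442 in limma, for Mobp).

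The direction of the combination against saline depended on combination replicate 3 and on how that array was scaled or weighted. With all 12 arrays 8 of 9 genes had higher means in the combination, by a median of 0.088 against 0.012 over all genes, and from -0.0094 for Mobp to 0.16 for Ugt8a (SE 0.15). Without replicate 3 all 9 had lower means, by a median of -0.11, from -0.044 for Cldn11 to -0.14 for Mobp (SE 0.053). With all 12 arrays kept, the median was also below 0 after quantile normalisation of the centred gene values (-0.052, 2 of 9 genes above 0). With array weights in the fit it was -0.042 (2 of 9). Quantile normalisation of centred values narrows the widest array, combination replicate 3, by construction, so it is not an independent check on that array. Array weights count an array less the more it departs from its group, so that fit is not an independent check either. None passed in limma in either of the first 2 fits (0 of 9 with 12 arrays, with 0.01% of all genes called and lowest adjusted p = 0.718, and 0 of 9 with 11 arrays, with 0% called and lowest adjusted p = 0.418). With 12 arrays 0 of 9 had an unadjusted p under 0.05, against 12.1% of genes, and with 11 arrays 2 of 9 (Mobp and Cnp), against 9.46%. With 2 combination arrays 5 of 9 genes (Mbp, Mobp, Cnp, Mog and Mag) lay wholly below saline, against 9.79% of all genes.

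The combination was also set against each drug by itself. Against ethanol the median was 0.14 with all arrays, 9 of 9 above 0 (7 of 9 after quantile normalisation), and -0.012 without replicate 3, 2 of 9 above 0, those 2 being Mag (0.079) and Opalin (0.11). Mobp and Mog stood at -0.10 and -0.14 in the second fit. None of the 9 passed (0.0251% and 0.00502% of all genes called, lowest adjusted p = 0.521 and 0.733 in limma). Opalin alone had its combination arrays wholly above ethanol, in both fits, against 6.44% and 11.1% of all genes. Without replicate 3, Mobp and Mog lay wholly below, against 11.2%. Against mephedrone the median was 0.23 with all arrays and 0.060 without replicate 3, with 9 of 9 genes above 0 in both. The largest difference was that of Ugt8a, 0.31 (SE 0.15) and then 0.099 (SE 0.099). None passed here either (0% called in both, lowest adjusted p = 0.992 with all arrays and 0.99992 without replicate 3 in limma). In all arrays 1 of 9, Mal at 0.24 (SE 0.11), had an unadjusted p under 0.05, against 3.31% of genes.

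**Figure D3:**
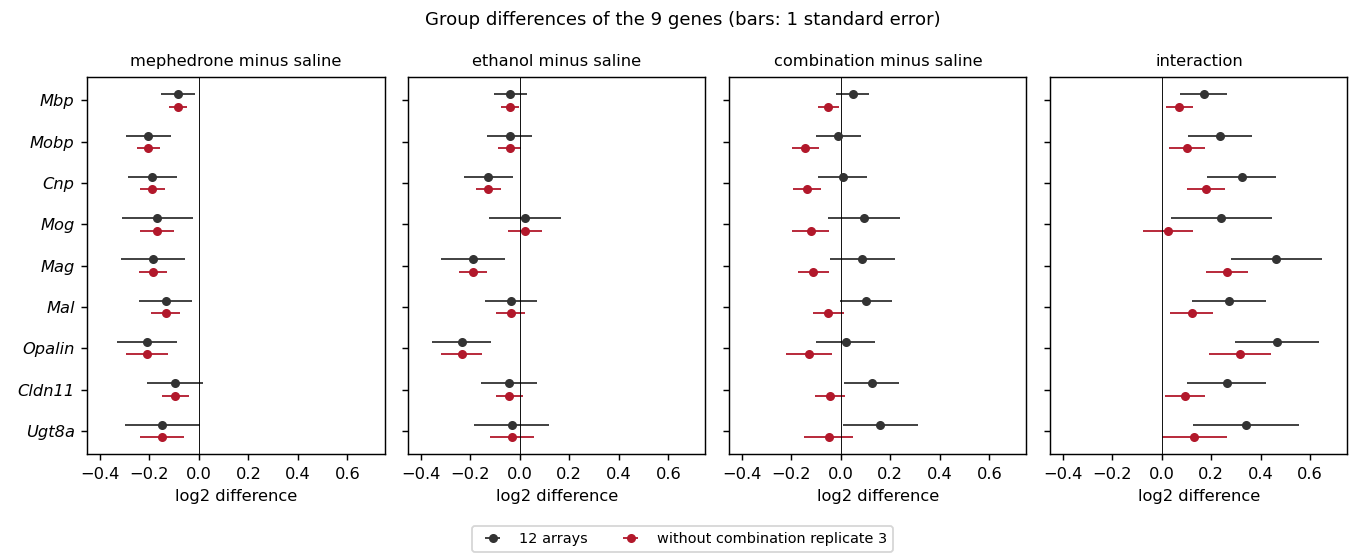
Log2 differences of the 9 genes in 4 comparisons, from limma fits to all 12 arrays (black) and to the 11 arrays without combination replicate 3 (red); bars are 1 standard error. The combination minus saline values change sign for 8 of 9 genes between the fits (with quantile normalisation of all 12 arrays 2 of 9 are above 0). Those of mephedrone minus saline and ethanol minus saline use no combination array, so they cannot move and only their bars narrow.

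The interaction asked whether ethanol acted differently in the presence of mephedrone than without it, and is the ethanol difference in the presence of mephedrone minus that in its absence. It was above 0 for 9 of 9 genes, with a median of 0.27 against -0.0093 over all genes, and largest for Opalin at 0.46 (SE 0.17), Mag at 0.46 (SE 0.18) and Ugt8a at 0.34 (SE 0.21). Without combination replicate 3 it was still above 0 for 9 of 9 but with a median of 0.12, and Opalin had 0.32 (SE 0.13), Mag 0.26 (SE 0.085), Cnp 0.18 (SE 0.077) and Mog 0.025 (SE 0.10). None passed in either fit (0 of 9, 0% of all genes called, adjusted p = 0.99994 and 0.9999 for each gene in limma). In both fits 3 of 9 (Cnp, Mag and Opalin) had an unadjusted p under 0.05, against 3.54% and 3.09% of genes. The same saline, ethanol and mephedrone arrays enter the comparisons above, so these values are not independent of them.

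Pooling both groups given mephedrone against both without it gave a median of 0.0017 with all arrays (-0.061 after quantile normalisation and -0.055 with array weights) and -0.074 without combination replicate 3, where 9 of 9 genes were below 0. In the second fit Mobp was lowest in p, at -0.15 (SE 0.036, unadjusted p = 0.00130, adjusted p = 0.103 in limma), and its 5 mephedrone-treated arrays lay wholly below the other 6, as did those of 0.587% of all genes. Mog had -0.16 (SE 0.051, adjusted p = 0.217 in limma) and Cnp -0.099 (SE 0.038, adjusted p = 0.305 in limma). None of the 9 passed in either fit (0.115% of all genes called with 12 arrays and 0.15% with 11). Pooling both groups given ethanol against both without it gave medians of 0.076 and 0.0043, and none passed (0% of all genes called in both fits, lowest adjusted p = 0.941 and 0.99992 in limma). A moderated F test for any difference among the 4 groups called none of the 9 (0.00502% of all genes called in both fits). The lowest F test values were those of Opalin with all arrays (adjusted p = 0.692 in limma) and of Mobp without combination replicate 3 (adjusted p = 0.352 in limma).

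The other genes of the oligodendrocyte lineage were taken by stage. Of 25 measured genes for further proteins of myelin and of its contact with the axon, 24 were highest in combination replicate 3, and of 17 genes of myelin lipid synthesis and oligodendrocyte metabolism 15 were. So were 10 of 11 transcription factors of the lineage and 6 of 10 genes of newly formed oligodendrocytes. For oligodendrocyte precursors, the dividing cells from which oligodendrocytes arise, it was 7 of 13 genes. Over all genes 18.2% were highest in that array. The list means in that array were 0.50, 0.51, 0.32, 0.32 and 0.11 in the same order, against 0.46 for the 9 genes. The median excess over the other 2 combination arrays was 0.53, 0.56, 0.35, 0.28 and 0.11. After quantile normalisation 22 of 25, 11 of 17, 7 of 11, 5 of 10 and 3 of 13 genes were highest there, in the same order. The median excess was then 0.23, 0.25, 0.17, 0.13 and 0.049. The difference between these lists was not tested.

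**Figure D4:**
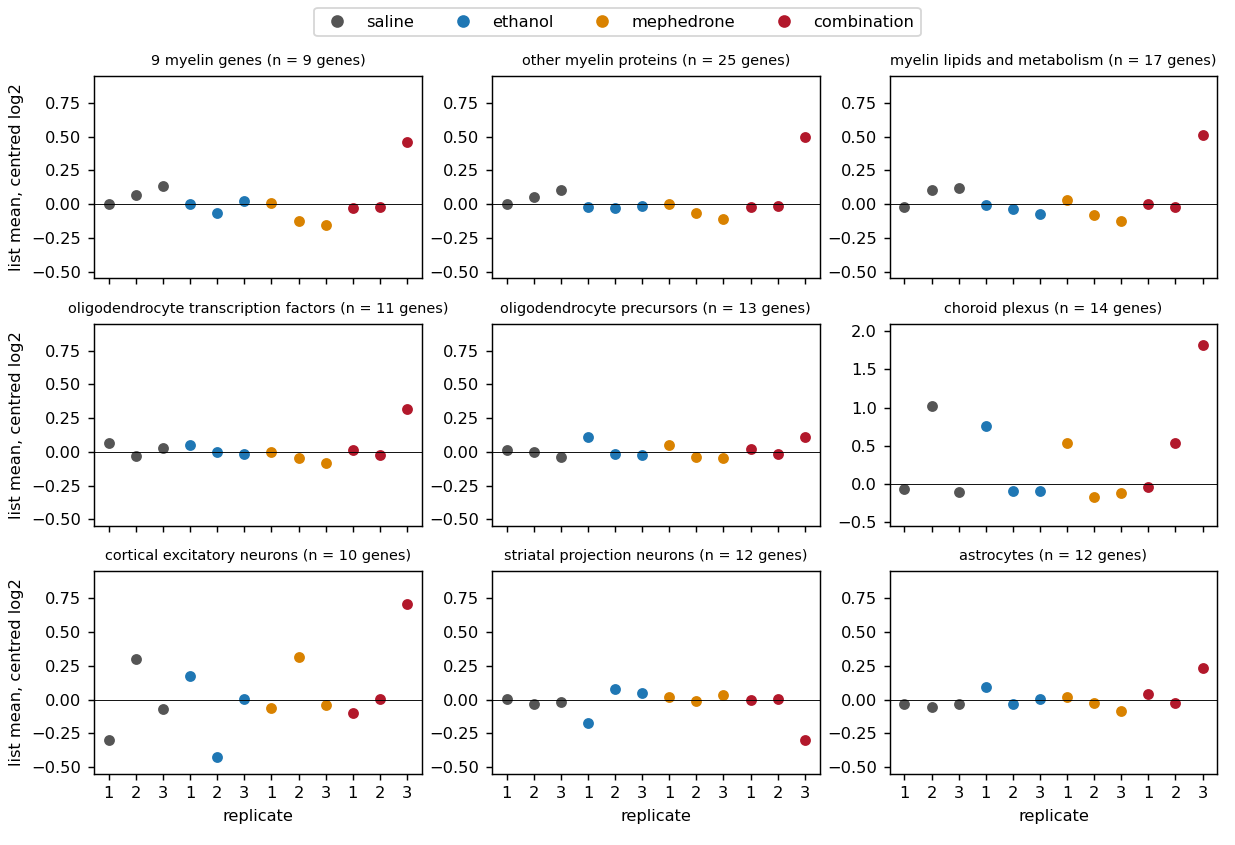
Mean centred log2 value of 9 gene lists in each array; the x axis gives the replicate within each treatment group (colours) and the choroid plexus panel has a wider y axis. Combination replicate 3 is highest for the 9 myelin genes (0.46) and for the choroid plexus (1.82) and cortical neuron (0.71) markers, and lowest for the striatal projection neuron markers (-0.30).

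No gene of these 5 lists passed in limma in any of the 9 comparisons, with or without combination replicate 3. For mephedrone against saline, 23 of 25 myelin protein genes were below 0 (median -0.11), as were 16 of 17 metabolic genes (median -0.13) and 10 of 11 transcription factors (median -0.062), whereas precursor genes were split 7 above and 6 below (median 0.00097) and newly formed oligodendrocyte genes 5 and 5 (median -0.0032). Over all genes 56% were above 0 in this comparison. For ethanol against saline the first 2 lists were also mostly below 0 (23 of 25 and 14 of 17), and the transcription factors were not (5 of 11). For the combination against saline, 24 of 25, 15 of 17 and 11 of 11 were above 0 with all arrays and 3 of 25, 3 of 17 and 2 of 11 without replicate 3. Precursor genes were 10 of 13 and then 8 of 13 above 0, and newly formed oligodendrocyte genes 10 of 10 and then 6 of 10. After quantile normalisation of all 12 arrays the 5 lists had 10 of 25, 6 of 17, 5 of 11, 7 of 13 and 9 of 10 above 0.

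Single genes of these lists differed in how far they shared this pattern. Myrf, a transcription factor that switches on myelin genes, was at 0.20, 0.11 and 0.14 in saline, -0.084, 0.0053 and -0.071 after ethanol, -0.053, -0.039 and -0.12 after mephedrone and 0.040, -0.0053 and 0.62 after both drugs. Its saline arrays lay above every other array but combination replicate 3, and without that array its F test gave adjusted p = 0.277 in limma (unadjusted p = 0.00104). Sox10, which marks the whole lineage, was at 0.39 in combination replicate 3 and between -0.17 and 0.087 elsewhere. Olig2, a further lineage factor, had its highest value outside that array after ethanol (0.21 in ethanol replicate 1), unlike the 9 genes. Pllp, a myelin proteolipid, had 0.024, 0.19 and 0.17 in saline, -0.10, -0.077 and -0.075 after ethanol, -0.056, -0.024 and -0.062 after mephedrone and 0.12, 0.058 and 0.66 after both drugs, so that both single-drug groups lay below both others. Gal3st1, which makes sulfatide from galactosylceramide, was at -0.23 (SE 0.076) for mephedrone against saline (adjusted p = 0.542 in limma). Among precursor genes, Pdgfra, the growth factor receptor of these cells, was at 0.13, 0.098 and 0.38 in the combination and at 0.18 in mephedrone replicate 1, and Cspg4 was at -0.0030 in combination replicate 3, within its range in the other arrays. Combination replicate 3 was also the highest array for Car2 (0.65), Adamts4 (0.52), Gsn (0.46), Zfp536 (0.35), Cnksr3 (0.34) and Tmem125 (0.18). It was not for Fyn (0.0073) and C1ql1 (-0.020), which were highest in ethanol replicate 1 (0.047 and 0.44).

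Genes most like the mean of the 9 were ranked by Pearson's r over the arrays, as a description, since arrays share 1 normalisation and combination replicate 3 weighs heavily. Over 12 arrays the first 5 were Bcas1 (r = 0.99), Sirt2 (r = 0.98), Trf (r = 0.97), Lpar1 (r = 0.97) and Prrg1 (r = 0.97), of which Bcas1, Sirt2, Trf (transferrin) and Lpar1 were in the lists of oligodendrocyte genes. Over the 11 arrays without combination replicate 3 they were Bcas1 (r = 0.96), Sirt2 (r = 0.92), Olfr385 (r = 0.90), Lpar1 (r = 0.89) and Trf (r = 0.89). Bcas1 was at 0.59 in combination replicate 3, at 0.12 in saline replicate 3 and at -0.13 and -0.16 in mephedrone replicates 2 and 3. Of the 50 most similar genes, 18 over 12 arrays and 13 over 11 arrays were in the lists of other oligodendrocyte genes, which hold 0.376% of all other genes. Among the 9 themselves, r with the mean of the other 8 ran from 0.81 for Opalin to 0.98 for Mbp over 12 arrays, and from 0.55 for Opalin to 0.91 for Mbp over 11.

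The transcript of Mir219a-2, chosen after its values were seen, was at place 16 in this ranking over 12 arrays (r = 0.95) and at 23 over 11 (r = 0.83). It encodes miR-219a, a microRNA known for its role in oligodendrocyte differentiation, whose mature sequence is shown from RefSeq (GRCm38.p6, chr2:29845689-29845709, - strand) with the seed, bases 2 to 8, in capitals.
mmu-miR-219a-5p: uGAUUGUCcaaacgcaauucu
Which part of the transcript at this locus the array probes read was not checked, so the values cannot be taken as those of the mature microRNA. Its values were -0.010, 0.19 and 0.13 in saline, 0.0045, -0.062 and 0.082 after ethanol, -0.013, -0.0045 and -0.18 after mephedrone and -0.013, 0.050 and 0.54 after both drugs. For the Mir219a-1 locus r was 0.20 over 12 arrays and -0.65 over 11, and for Mir338 it was 0.32 and 0.22. No group comparison passed for Mir219a-2 in limma (F test adjusted p = 0.775).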

How the data were processed

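The authors deposited log2 values from RMA (background correction, quantile normalisation and probe summary), with genome build mm8, per the submitters' processing notes. GeneSpring GX 7.3.1 is named in the design text. The table holds 28853 probe sets. Every probe set has a median of 0 over the 12 arrays (within 7e-07), a centring step that no source describes. Of these, 21789 carried 1 symbol. Values were averaged per symbol (19938 genes) and fitted as 4 group means in limma 3.58.1 (R 4.3.3; lmFit, eBayes, two-sided, 8 residual degrees of freedom), with Benjamini-Hochberg adjustment over all genes and a threshold of 0.05, and again without combination replicate 3. "Lay wholly below" means no overlap between arrays. No 2 arrays were identical. For arrays, their number limits the precision. The members and lists were chosen with earlier results of these data known. All members are named, with list genes by smallest F test p, set markers (Sox10, Olig2, Myrf, Pdgfra) and the 5 most similar genes. The fit was tested on simulated data. Alternatives changed the arrays used, the pairing, the normalisation, array weights, the choice of probe set and the filter (lowest variance, since centred rows hold no level).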

Additional observations from a re-analysis of the deposited data

Results flagged for a closer look

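For 5 genes every ethanol array lay below the saline mean while every combination array lay above the mephedrone mean. The mean ethanol difference thus had opposite signs without and with mephedrone. This rule does not weigh the spread of the group whose mean it uses. For Mbp and Mobp the ethanol difference from saline was smaller than its SE (-0.038, SE 0.068, and -0.041, SE 0.092). The interaction was 0.17 for Mbp, 0.24 for Mobp, 0.32 for Cnp, 0.46 for Mag and 0.46 for Opalin. For Mag and Opalin every mephedrone array also lay below the saline mean and every combination array above the ethanol mean, which is the same interaction (0.46 and 0.46). The difference itself was tested by the interaction term in limma and passed for none (adjusted p = 0.99994 for each). Without combination replicate 3 the values were 0.071, 0.10, 0.18, 0.26 and 0.32 in the same order (adjusted p = 0.9999 for each in limma). No formal outlier test was run within groups of 3 arrays, though each array was left out in turn and combination replicate 3 was treated apart above.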

How the results depend on the processing

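None of the 9 genes passed in limma in any comparison run under the 21 other settings (0 of 1674 values), nor in the F test, run in 20 of them. The fit to only the 6 arrays compared has no main effects, interaction or F test. The lowest adjusted p was 0.0727 in limma, for Mobp in the mephedrone main effect (-0.16, SE 0.038) without combination replicate 3 and ethanol replicate 1 together. The sign of a value changed in 164 of the 1674, 93 of them in settings without combination replicate 3. Leaving out 1 array gave member medians of -0.079 to -0.021 for ethanol against saline, -0.23 to -0.10 for mephedrone against saline, -0.11 to 0.18 for the combination against saline, -0.012 to 0.24 for it against ethanol and 0.060 to 0.32 for it against mephedrone. They were -0.12 to -0.019 for mephedrone against ethanol, -0.074 to 0.052 and 0.0043 to 0.12 for the mephedrone and ethanol main effects and 0.12 to 0.37 for the interaction. The lowest of each range that includes the combination came from leaving out its replicate 3. With all 12 arrays, quantile normalisation and array weights gave -0.052 and -0.042 for the combination against saline, -0.061 and -0.055 for the mephedrone main effect and 0.22 and 0.15 for the interaction. Both settings reduce the part played by an array that stands apart, so they are not independent of leaving out combination replicate 3. Without combination replicate 3 and ethanol replicate 1 the medians were -0.11 for the combination against saline, 0.060 against mephedrone and 0.097 for the interaction. Both settings that follow were chosen after seeing the data. Without the 5 arrays with a choroid plexus mean above 0.5, which leaves 1 combination array that is assumed to vary like the other groups, the combination against saline had -0.097. With a replicate block and without combination replicate 3 it had -0.092, and 0.064 against mephedrone. With the replicate block and all arrays every median was, as a balanced design requires, that of the fit without it (0.088 for the combination against saline) and 0 genes passed. For arrays with equal replicate numbers, correlations of their deviations from the group mean ran from -0.281 to 0.427 over 18 pairs, 7 of them above 0.1. Arrays with unequal numbers were not correlated, so these values cannot decide whether the replicate numbers pair the arrays.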
